A study of Caenorhabditis elegans with 6 samples.

Results

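The genes described here encode the scaffold that holds homologous chromosomes together in meiosis: syp-1, syp-2, syp-3 and syp-4 of the synaptonemal complex, him-3, htp-1, htp-2 and htp-3 of the chromosome axis, the cohesin gene rec-8, and him-17, a chromatin gene of meiotic recombination. They were chosen by symbol, and all 10 were found among the 20189 protein-coding genes of the deposited count table. Messenger RNA had been sequenced from whole Caenorhabditis elegans hermaphrodites at L4, the larval stage before the adult, in 6 samples. All animals carried rpl-36A(P55Q), a changed ribosomal protein gene that the series title links to ribosomes resistant to cycloheximide, over the balancer mIn1, and were grown at 23 °C. The no_CHX group had 3 samples taken after 2 days on plates without cycloheximide (CHX, an inhibitor of translation elongation), and the CHX group had 3 samples taken after 3 days on plates with 500 µg/ml of it. Drug and age therefore change together and cannot be told apart, every animal had the altered allele, and no group without it is used here. Whether the replicates are separate cultures is not in the labels, and p-values speak only of the variation among these samples, some or all of which may be technical.

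The synaptonemal complex is a protein lattice that zips paired homologous chromosomes along their length in meiotic prophase. In worms the SYP proteins, most of them with coiled coils, form its central region and depend on each other for assembly. They attach to chromosome axes, on which cohesin rings and proteins with a HORMA domain organise the chromatin into loops, promote pairing and crossing over, and guide the stepwise loss of cohesion in the divisions. These genes act in germ cells. In an L4 hermaphrodite the gonad holds mitotic germ cells and cells in meiotic prophase, and its first meiotic cells become sperm before the germ line turns to oocytes.

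Libraries were shallow, with 313767 to 414781 counts over coding sequences, and 3 counts amounted to 7.23 to 9.56 CPM (counts per 1000000 counts) of a library's total. The 10 genes together had 190, 232 and 228 counts in no_CHX replicates 1 to 3 and 414, 406 and 459 in CHX replicates 1 to 3. No_CHX replicate 1 lay apart from the other samples on the second principal component, which held 15.3% of the variance, while the first held 53.99% and divided the groups. Levels below are in CPM, with library size taken as the counts in tested genes times the library's TMM factor, and are given as means ± SD over 3 samples. Fold changes are those of edgeR's quasi-likelihood fit over 5641 tested genes, and a gene was called when its p, adjusted by Benjamini and Hochberg's method over all of them, was under 0.05. In bulk tissue, fewer cells of a type and less RNA per cell cannot be told apart.

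Of the 10 genes, htp-3, syp-4, rec-8 and him-17 were higher in animals on CHX, by 2.14-fold, 1.96-fold, 1.72-fold and 1.53-fold, and none was called lower with edgeR, DESeq2 or limma-voom. At an unadjusted p under 0.05, edgeR passed 5 higher, these 4 and htp-1, and 0 lower. No share of all tested genes was counted at that looser threshold. At the adjusted threshold 10.3% of all tested genes were called higher and 14.9% lower. Levels of syp-2 and him-3 were below those without CHX in the fit, with intervals that include no change. The gene syp-3 had too few counts to be tested, and htp-1 and htp-2 passed the filter on low counts only through the samples on CHX. A fit without that filter covers all 10 and called the same 4 higher and 0 lower, against 4.4% of 13894 genes higher and 5.3% lower. In it the median log2 fold change of the 10 was 0.64, beside 0.01 over all genes.

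**Figure D1:**
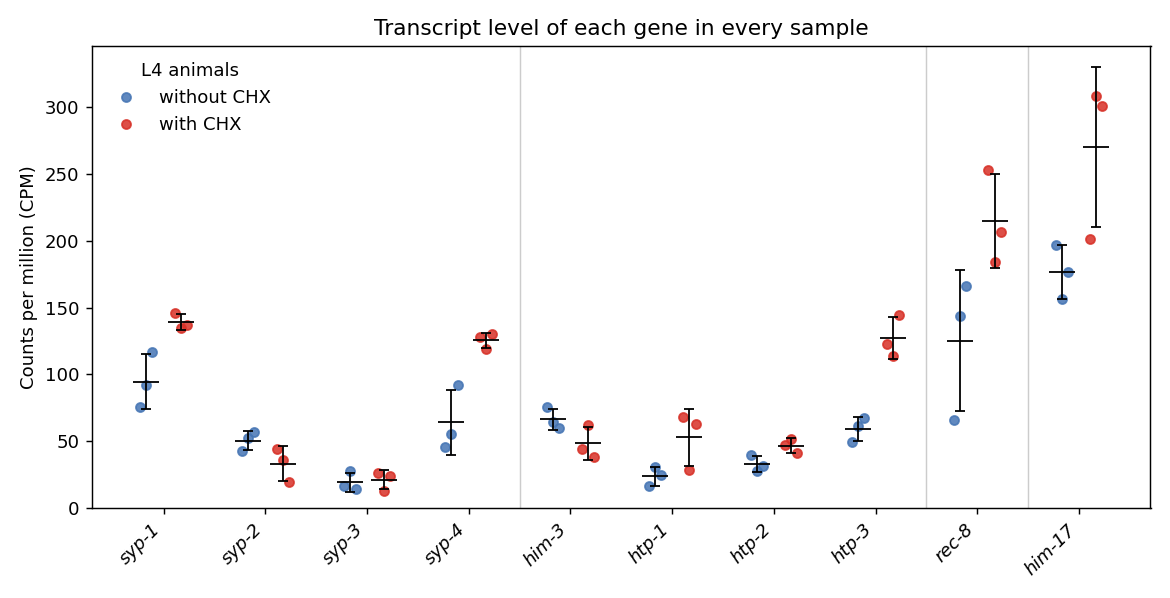
Transcript level in CPM (vertical axis) of each of the 10 genes in every sample, with points for samples, black bars for group means and whiskers for SD over 3 samples. The groups of syp-1, syp-4, htp-2, htp-3, rec-8 and him-17 do not overlap, and syp-2 and him-3 have their lower means on CHX.

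Among the central region genes, syp-4 and syp-1 had their higher levels on CHX, and syp-2 did not. The gene syp-4 (WBGene00019247; chromosome I, 6847511 to 6849923 in WBcel235, plus strand, 8 coding exons) encodes one of the coiled-coil proteins that cannot assemble without their partners. It had 14, 18 and 26 counts in no_CHX replicates 1 to 3 and 49, 46 and 54 in CHX replicates 1 to 3. Every sample on CHX had a higher level than every sample without it, and the spread was wider without the drug. Its mean went from 64.3 ± 24.3 to 126 ± 5.68 CPM (SD, n = 3; adjusted p 0.0251, with a log2 fold change of 0.97 and an SE of 0.32). The call was lost when no_CHX replicate 1 (adjusted p 0.0904) or 2 (0.0811) or CHX replicate 1 (0.0633) or 3 (0.0717) was left out, and the adjusted p ran from 0.00981 to 0.0904 over 15 alternatives.

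The gene syp-1 (WBGene00006375; chromosome V, 16405751 to 16407699, plus strand, 6 coding exons) encodes the SYP protein whose ends reach both the axis and the middle of the complex. Its counts were 23, 30 and 33 without CHX and 56, 52 and 57 with it. The groups did not overlap, and the 3 samples on CHX lay close together. The mean was 94.6 ± 20.8 CPM without CHX and 139 ± 6.06 CPM with it, a difference that missed the threshold (log2 fold change 0.56, 95% interval -0.02 to 1.14, adjusted p 0.149; 0.0605 to 0.377 over the alternatives).

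Transcripts of syp-2 (WBGene00006376; chromosome V, 5536681 to 5537713, plus strand, 4 coding exons), for a small coiled-coil protein of the same lattice, had 13, 17 and 16 counts without CHX and 17, 14 and 8 with it. The groups overlapped, and CHX replicate 3 had the lowest level. The means were 50.4 ± 7.12 and 33.3 ± 12.8 CPM (log2 fold change -0.60, 95% interval -1.53 to 0.33, adjusted p 0.356). Leaving out CHX replicate 3 brought the log2 fold change to -0.30. The gene syp-3 (WBGene00006377; chromosome I, 8663050 to 8664143, minus strand, 5 coding exons), for another short central region protein, had the fewest counts of the 10, with 5, 9 and 4 without CHX and 10, 5 and 10 with it. Its samples overlapped throughout, at 19.4 ± 7.19 and 21.0 ± 7.08 CPM. The ratio of its summed counts, scaled to library size, was 1.07, with a 95% counting interval from 0.562 to 2.09, and a change within that range was not detectable at this depth. Intervals of counts cover counting error only. Its last 56 bases, outside its coding exons, overlap mrt-1 on the other strand.

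Of the HORMA domain genes, htp-3 was called. HTP-3 is the axis protein on which the other HORMA proteins of the worm depend for loading. The gene (WBGene00002034; chromosome I, 4827072 to 4829794, plus strand, 9 coding exons) had 15, 20 and 19 counts without CHX and 47, 44 and 60 with it. All samples on CHX were well above those without it, and no sample stood apart within its group. The mean rose from 59.2 ± 9.17 to 127 ± 15.6 CPM (adjusted p 0.00975, with a log2 fold change of 1.10, an SE of 0.31 and a 95% interval of 0.46 to 1.74). Of the 10 genes this was the firmest call: it was lost under 1 of the 15 alternatives, without CHX replicate 3 (adjusted p 0.0544, log2 fold change 1.01), and the adjusted p ran from 0.00362 to 0.0544.

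HIM-3 binds HTP-3 and is needed for synapsis and for choosing the homologous chromosome as a repair partner. Its gene (WBGene00001862; chromosome IV, 6977517 to 6978765, plus strand, 4 coding exons) had 23, 21 and 17 counts without CHX and 17, 24 and 16 with it. The groups overlapped because CHX replicate 2 was above no_CHX replicate 3. The means were 66.6 ± 7.90 and 48.4 ± 12.3 CPM (log2 fold change -0.46, 95% interval -1.24 to 0.32, adjusted p 0.400). The upper bound corresponds to a 1.25-fold higher level, and the lower bound of the htp-3 interval to 1.38-fold. The log2 fold change of him-3 was -0.30 without CHX replicate 3. Its end, outside the coding exons, overlaps 24 bases of prkl-1 on the other strand.

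HTP-1 and HTP-2 are close paralogs that act in pairing and in protecting cohesion until the second division, with HTP-1 the more important of them for homolog pairing. Both genes lie on chromosome IV, htp-1 (WBGene00002032) on the minus strand from 5390184 to 5391557 and htp-2 (WBGene00002033) on the plus strand from 6419500 to 6420898. Each has 4 coding exons and a coding length of 1059 bases. Since their sequences are alike, reads may have been shared or dropped between them, and their separate values are uncertain. The counts of htp-1 were 5, 10 and 7 without CHX and 26, 11 and 26 with it. CHX replicate 2 fell among the samples without CHX, and the other samples on CHX were above all of those. The mean of htp-1 was 23.9 ± 7.15 and 53.0 ± 21.4 CPM (log2 fold change 1.13, 95% interval 0.13 to 2.13, adjusted p 0.0895). It passed the filter on low counts only through the samples on CHX, and without that filter its adjusted p was 0.134. It was called without CHX replicate 2 (log2 fold change 1.44, adjusted p 0.0458). That fit leaves out the only low sample on CHX, so it lends the gene no support. Over the alternatives the adjusted p ran from 0.0458 to 0.284. For htp-2 the counts were 12, 9 and 9 without CHX and 18, 20 and 17 with it. Its groups did not overlap, but their distance was small, with means of 32.9 ± 5.96 and 46.6 ± 5.49 CPM (log2 fold change 0.50, 95% interval -0.42 to 1.41, adjusted p 0.446). Counts of both genes in sum do not depend on how shared reads were split between them. They would still be altered if such reads were dropped or counted more than once. The sums came to 17, 19 and 16 without CHX and 44, 31 and 43 with it. The summed level was 56.8 ± 1.25 and 99.6 ± 17.6 CPM, and the scaled ratio of summed counts was 1.75 (95% counting interval 1.25 to 2.48). That interval leaves out the variation among samples, the sum was not tested, and neither gene was called.

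REC-8 is the kleisin subunit that closes the cohesin ring of meiotic chromosomes. Its gene (WBGene00004333; chromosome IV, 13348870 to 13353193, minus strand, 8 coding exons) had 20, 47 and 47 counts without CHX and 97, 71 and 86 with it. No_CHX replicate 1 was far below the others of its group: 20 counts have a 95% counting interval of 12.2 to 30.9, and 47 counts one of 34.5 to 62.5. The groups did not overlap. The mean rose from 125 ± 52.8 to 215 ± 35.3 CPM (adjusted p 0.0332, with a log2 fold change of 0.78 and an SE of 0.27). Without no_CHX replicate 1 the log2 fold change was 0.47 and the adjusted p 0.178. The gene was also not called when CHX replicate 1 (0.150) or 3 (0.0697) was left out or DESeq2 was used (0.0671), and the adjusted p ran from 0.0114 to 0.178 over the alternatives.

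HIM-17 is a chromatin-associated protein with THAP domains, needed for meiotic double-strand breaks and for the expression of germline genes. Its gene (WBGene00001874; chromosome V, 13176711 to 13180189, plus strand, 9 coding exons) had the most counts of the 10, with 60, 51 and 50 without CHX and 77 to 125 with it. CHX replicate 1, at 201 CPM, lay just above no_CHX replicate 1, at 197 CPM, while CHX replicates 2 and 3 were at 308 and 301 CPM. The groups were therefore separate by a small margin. The mean rose from 177 ± 20.3 to 270 ± 59.9 CPM (adjusted p 0.0401, with a log2 fold change of 0.62 and an SE of 0.22). It missed the threshold when no_CHX replicate 2 (0.113) or 3 (0.0801) or CHX replicate 2 (0.159) or 3 (0.154) was left out, and with DESeq2 (0.0800) or limma-voom (0.0521). The adjusted p ran from 0.00911 to 0.159 over the alternatives.

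**Figure D2:**
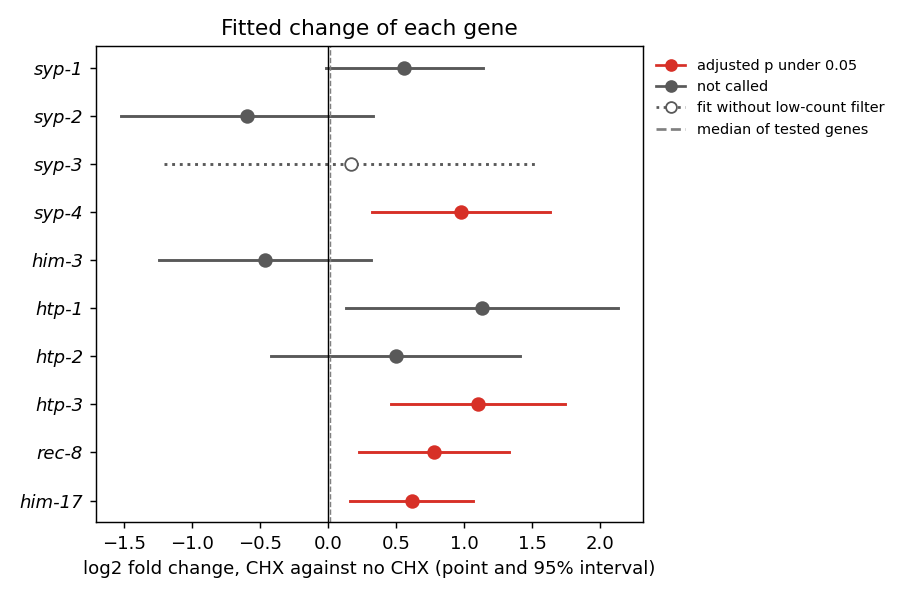
Fitted log2 fold change of each gene, CHX against no_CHX, with its 95% interval, in red where the adjusted p was under 0.05 and dotted for syp-3, which was fitted without the low-count filter. The intervals of htp-3, syp-4, rec-8, him-17 and htp-1 lie above 0, though htp-1 was not called, and those of syp-2 and him-3 reach from below -1 to above 0.

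Taking all 10 genes, 6 had groups that did not overlap, and in all 6 the higher group was CHX. Among tested genes 19.5% were higher on CHX with no overlap and 20.2% lower. Summed over the 10 genes, the level was 623 to 806 CPM without CHX and 1052 to 1104 CPM with it, a ratio of group means of 1.51. The calls depend on single libraries: the number of the 10 called higher was 0 without CHX replicate 3, where 6.31% of the genes then tested were higher. It was 2 when CHX replicate 1 or no_CHX replicate 1 or 2 was left out, and 2 with DESeq2, which called 7.34% of tested genes higher. None of the 9 tested genes changed the sign of its fold change under any of the 15 alternatives.

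Levels were compared between genes as CPM per kilobase of coding sequence. Without CHX the order from the top was syp-2 (78.5 ± 11.1), him-3 (76.0 ± 9.02), syp-1 (64.4 ± 14.1), him-17 (61.6 ± 7.07), rec-8 (53.4 ± 22.5), syp-4 (35.4 ± 13.4), htp-2 (31.1 ± 5.63), syp-3 (28.7 ± 10.6), htp-3 (26.7 ± 4.13) and htp-1 (22.6 ± 6.75). Each gene overlapped with the next in its range over samples, so no neighbours in this order were separate. With CHX the order was syp-1 (94.8 ± 4.12), him-17 (94.3 ± 20.9), rec-8 (91.5 ± 15.05), syp-4 (69.1 ± 3.13), htp-3 (57.2 ± 7.02), him-3 (55.2 ± 14.1), syp-2 (51.9 ± 20.0), htp-1 (50.03 ± 20.2), htp-2 (43.98 ± 5.18) and syp-3 (31.2 ± 10.5). Here syp-4 lay below rec-8 and above htp-3 with no overlap, and all other neighbours overlapped. The median over 5516 tested genes with a coding length was 54.97 without CHX and 57.7 with it, and the upper quartiles were 114 and 109, above all 10 genes. The highest of the 10 was 3.48 times the lowest without CHX and 3.04 times with it.

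Within the set of central region genes and within the HORMA family, the shares of some genes in the summed transcripts lay apart between the groups. Of the summed per-kilobase level of the 4 central region genes, syp-2 made up 38.1% ± 1.45 without CHX and 20.7% ± 6.69 with it (SD, n = 3). The share of syp-4 went from 16.8% ± 3.81 to 28.2% ± 2.84 and that of syp-1 from 31.0% ± 2.07 to 38.6% ± 2.44. For all 3 the shares of the groups did not overlap, while syp-3, at 14.1% ± 5.14 and 12.5% ± 3.81, overlapped. In the HORMA family, him-3 held 48.5% ± 4.42 without CHX and 26.9% ± 7.81 with it, and htp-3 held 17.1% ± 3.09 and 27.7% ± 3.25, again without overlap. The shares of htp-1 and htp-2 overlapped. Shares in a set are parts of a whole, so a lower share of a gene raises the others, and they are not separate results. In level, syp-2 and him-3 overlapped between groups (edgeR's adjusted p 0.356 and 0.400), and syp-1 was not called (0.149). Over all tested genes 19.5% were higher in level on CHX with no overlap and 20.2% lower. These percentages are for levels of single genes, and none was counted for shares within a set. Per kilobase, the ratio of him-3 to htp-3 was 3.89, 2.66 and 2.27 in no_CHX replicates 1 to 3 and 0.917, 1.38 and 0.676 in CHX replicates 1 to 3. That of syp-2 to syp-1 was 1.29, 1.30 and 1.11 without CHX and 0.695, 0.616 and 0.321 with it. These pairs were chosen after their values were seen, so the ratios are given as a description, with no test.

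**Figure D3:**
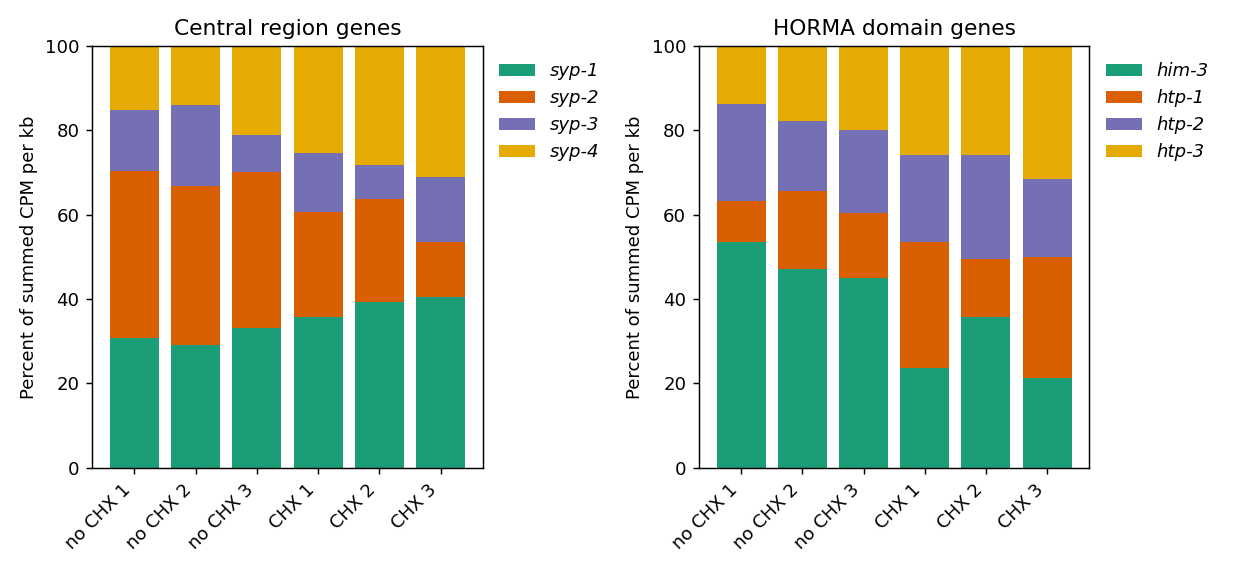
Share of each gene, in percent of the summed CPM per kilobase of its set (vertical axis), in each of the 6 samples. The 4 central region genes are on the left and the 4 HORMA domain genes on the right. The syp-2 share lies between 36.9% and 39.7% in the samples without CHX and between 13.01% and 24.9% in those with it, and the him-3 share between 45.1% and 53.5% and between 21.3% and 35.8%.

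Other meiotic genes were read from 6 further lists with 73 genes, of which 61 were tested. Many of them, such as those of the cohesin core, also act outside meiosis, so the lists are not particular to it. There were 14 called higher and 0 lower, against 10.3% higher and 14.9% lower over all tested genes. At an unadjusted p under 0.05 there were 23 higher and 0 lower, a threshold at which no share of all tested genes was counted. DESeq2 and limma-voom called 0 lower. Of the 61, 20 passed the filter on low counts only through the samples on CHX, and 3 of those were called, pch-2, msh-5 and rtel-1. Without that filter all 73 were fitted and 14 were called higher and 0 lower, against 4.4% of 13894 genes higher and 5.3% lower. In that fit the median log2 fold change of the 73 was 0.56, beside 0.01 over all genes. The number higher was 9 without CHX replicate 2, and 22 with library totals in place of TMM factors.

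None of the 4 other synaptonemal complex subunits was called with edgeR or under any of the 15 alternatives, and 0 passed at an unadjusted p under 0.05. Over all tested genes 10.3% were called higher and 14.9% lower, so the lack of a call among so few genes does not set them apart. Their median log2 fold change was 0.34, beside 0.02 over all tested genes. The 4 were syp-5 and syp-6, a paralogous pair of central region genes, and skr-1 and skr-2, adaptors of a ubiquitin ligase that also take part in the worm complex. The levels of syp-6 were 61.8 ± 12.01 and 82.0 ± 23.5 CPM (adjusted p 0.421) and those of skr-1 180 ± 41.3 and 163 ± 9.20 CPM (adjusted p 0.694).

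Cohesin genes around rec-8 were called higher in 4 of 12 cases, with 0 lower, beside 10.3% of all tested genes higher and 14.9% lower. The release factor gene wapl-1, which opens the ring, went from 68.5 ± 16.1 to 197 ± 34.6 CPM, 2.87-fold (adjusted p 1.79e-04). Its counts were 26, 22 and 15 without CHX and 62, 77 and 96 with it, far apart in every sample. The core subunit gene smc-3 rose from 115 ± 31.8 to 238 ± 20.0 CPM (adjusted p 0.00172) and evl-14, for a Pds5-type cohesin regulator, 2.00-fold (adjusted p 0.00437). These 3 were called under all 15 alternatives. The gene him-1, for the SMC-1 subunit, rose 1.57-fold (adjusted p 0.0323), a call that ended when no_CHX replicate 1 (0.170, log2 fold change from 0.65 to 0.41) or 3 (0.0517) or CHX replicate 1 (0.0574) or 2 (0.134) was left out, and with DESeq2 (0.0656). The most abundant members, pqn-85 for the cohesin loader SCC-2 and scc-3 for a core subunit, were not called, at 400 ± 81.5 and 339 ± 5.39 CPM and at 258 ± 101 and 348 ± 28.0 CPM, though scc-3 passed without no_CHX replicate 3 (adjusted p 0.0130) and with library totals (0.0383).

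In the pairing and synapsis list 1 of 9 tested genes was called higher, beside 10.3% of all tested genes. This was pch-2, for the ATPase that remodels HORMA proteins, at 18.8 ± 15.5 and 54.1 ± 14.4 CPM (adjusted p 0.0363, with a log2 fold change of 1.52 and an SE of 0.54). It ceased to pass when no_CHX replicate 2 (0.163, log2 fold change 1.07) or 3 (0.101) or CHX replicate 2 (0.160) or 3 (0.0758) was left out, and with DESeq2 (0.0743), limma-voom (0.0551) or a replicate block (0.0529). It passed under 7 of 15 alternatives, and without no_CHX replicate 1 its log2 fold change was 2.41. The gene passed the filter on low counts only through the samples on CHX, and without that filter its adjusted p was 0.0385. The kinase gene plk-2, which acts at pairing centers, was at 253 ± 30.7 and 272 ± 65.1 CPM, and cra-1, a regulator of synapsis, at 165 ± 3.88 and 151 ± 3.19 CPM, both without a call (adjusted p 0.737 and 0.727).

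Of 14 tested break formation and strand exchange genes 2 were called higher, beside 10.3% of all tested genes. The gene rad-50, of the complex that trims broken ends, went from 88.5 ± 45.2 to 186 ± 28.7 CPM (adjusted p 0.00783; 0.0556 without no_CHX replicate 2). The checkpoint kinase gene atm-1 rose 1.76-fold (adjusted p 0.0326), and was not called when no_CHX replicate 1 (0.0632) or 3 (0.118) or CHX replicate 1 (0.191) or 2 (0.0528) was left out, or with DESeq2 (0.0628). The chromatin factor gene xnd-1 missed the threshold at 108 ± 10.04 and 168 ± 38.5 CPM (adjusted p 0.0777; 0.0267 with library totals).

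Among 12 tested crossover genes msh-5 and rtel-1 were called higher, beside 10.3% of all tested genes. Both passed the filter on low counts only through the samples on CHX. In edgeR's fit without that filter their adjusted p was 0.00447 and 0.0134. The MutS family gene msh-5, needed for crossovers, had 17, 16 and 8 counts without CHX and 37, 46 and 48 with it. All samples on CHX were higher, and the mean went from 44.3 ± 14.3 to 110 ± 12.1 CPM (adjusted p 0.00589, with a log2 fold change of 1.30 and an SE of 0.35). The call was kept under all 15 alternatives, most of which apply the same filter. The helicase gene rtel-1, which limits crossovers, rose 2.51-fold (adjusted p 0.0114; 0.0642 without CHX replicate 3). The nuclease gene xpf-1, at 95.4 ± 15.6 and 151 ± 23.7 CPM, and the helicase gene him-6, at 64.6 ± 33.4 and 110 ± 21.5 CPM, were not called (adjusted p 0.0809 and 0.0984), though both passed with library totals (0.0297 and 0.0459) and him-6 without no_CHX replicate 3 (0.0202).

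Genes of the meiotic divisions were called higher in 5 of 10 tested cases, beside 10.3% of all tested genes. The katanin genes mei-1 and mei-2, whose products sever microtubules of the meiotic spindle, rose 1.97-fold and 1.94-fold (adjusted p 0.00253 and 0.0166), the chromokinesin gene klp-19 1.52-fold (0.00482) and the kinetochore kinase gene bub-1 1.64-fold (0.0224). The fifth, icp-1, for the INCENP subunit of the chromosomal passenger complex, was named after its value was seen and rose 1.64-fold (0.0469), and it passed under 6 of 15 alternatives, DESeq2 (0.0854) not among them. Leaving out single libraries ended the calls of mei-2 (no_CHX replicate 2, adjusted p 0.0664, or CHX replicate 2, 0.0837) and bub-1 (no_CHX replicate 3, 0.125, or CHX replicates 1, 0.0860, and 3, 0.0646), and all but no_CHX replicate 3 ended that of icp-1. The kinesin gene klp-18 was at 276 ± 72.0 and 350 ± 31.3 CPM (adjusted p 0.203).

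**Figure D4:**
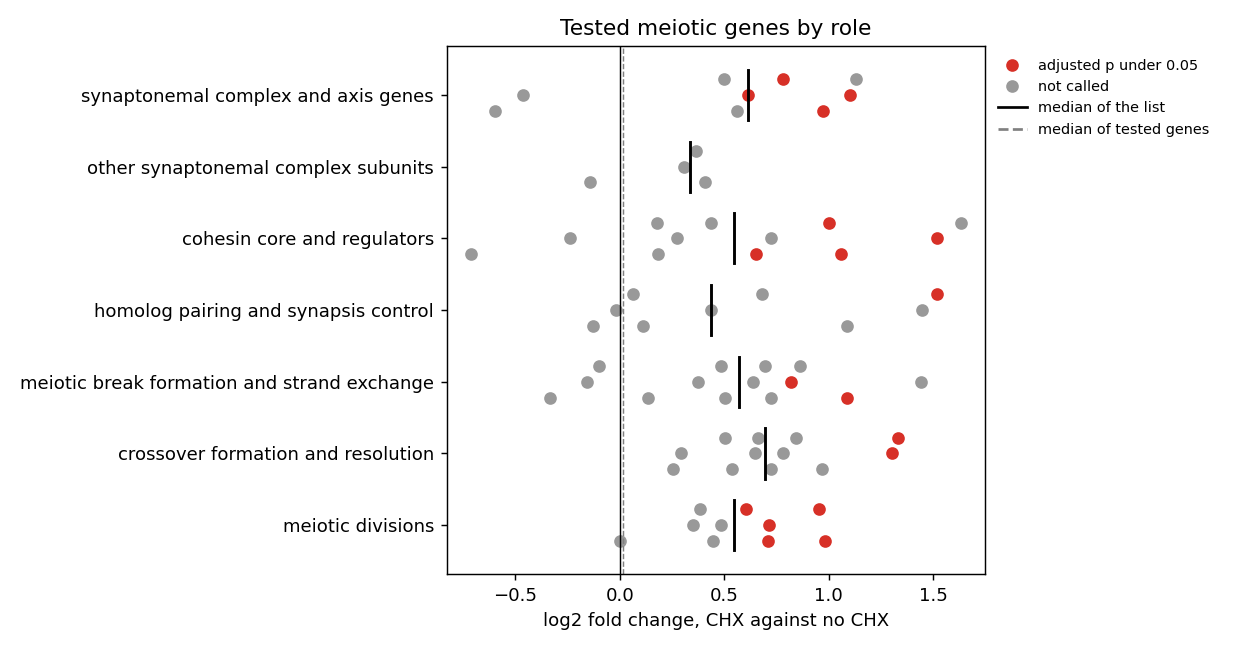
Fitted log2 fold change (horizontal axis) of the tested synaptonemal complex and axis genes and of 6 further meiotic lists, with 1 point for each gene, red where the adjusted p was under 0.05, a black bar at each list's median and a dashed line at the median of all tested genes. List medians lie between 0.34 for other synaptonemal complex subunits and 0.69 for crossover genes, and every red point lies to the right of 0. Genes that passed the low-count filter only through the samples on CHX are drawn too.

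Markers of tissues differed between the groups too, and their part in these results was not tested. Beside the counts below, 10.3% of all tested genes were called higher and 14.9% lower. Summed over 14 general germ line genes, the level was 5947 to 6350 CPM without CHX and 6753 to 7136 with it, a ratio of means of 1.14, and 3 of the 14 were called higher and 1 lower. For 10 oocyte genes the sums were 3243 to 4535 and 10908 to 11786 CPM with all 10 higher, and for 11 sperm genes 1131 to 1333 and 477 to 718 CPM with 4 of 7 tested lower. Of the sperm genes spe-38 and peel-1 were at 0 in every no_CHX sample, and no marker on any list was at 0 in all CHX samples. Body wall muscle markers summed to 6055 to 8734 and 4570 to 4914 CPM (5 of 5 lower), intestine markers to 5635 to 6505 and 3846 to 4050 CPM (3 of 4 tested lower), and epidermis markers to 2287 to 2487 and 1434 to 1755 CPM (2 of 4 tested lower). Pharynx muscle markers lay at 297 to 401 and 340 to 378 CPM with 1 of 3 higher, and neuron markers at 214 to 311 and 198 to 236 CPM with 0 of 2 tested called, also by DESeq2 and at an unadjusted p under 0.05.

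The same comparison was made with the summed counts of the 14 germ line markers as library size, an alternative chosen after the data were seen. The median log2 fold change of all tested genes then moved from 0.02 to -0.17. Log2 fold changes of the tested synaptonemal complex and axis genes ran from -0.79 to 0.94, each with the sign it had before. Only htp-3 passed (adjusted p 0.0320, log2 fold change 0.91 with an SE of 0.32), beside 6.33% of tested genes higher, and syp-4 (0.0747), rec-8 (0.119) and him-17 (0.159) did not. Of the 14 other meiotic genes called, him-1, pch-2, atm-1, icp-1, klp-19, bub-1 and mei-2 also did not. With library totals in place of TMM factors the median of all tested genes was 0.18, 851 genes were higher and 605 lower in place of 579 and 840, and the same 4 of the 10 genes were called, beside 15.1% of tested genes higher.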

How the data were processed

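The values the authors deposited are whole read counts in coding sequence, 1 transcript to a gene, for 20189 genes on WBcel235, per the file headers. Per the labels' protocols, RNase H served to remove ribosomal RNA after a Trizol extraction, and a SMARTER kit to build libraries. The submitters' processing notes list DESeq2 beside WBcel235. Not given in the sources used here are the aligner, the counting program and strand use. Without molecular identifiers, counting intervals and floors cover counting error only.

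Counts were fitted in R 4.3.3 with edgeR 4.0.16 (filterByExpr with a minimum count of 10 and a minimum total of 15, TMM factors, robust quasi-likelihood F-test of group, Benjamini-Hochberg adjustment). This left 5641 genes with 94.1% of counts. In the filter, 3 samples had to reach 26.8 CPM of their totals. Dividing the size of a log2 fold change by the square root of F gave its standard error, and 95% intervals use the t distribution with the fit's degrees of freedom. The fit was checked on simulated counts. Alternatives used DESeq2 1.42.0, limma-voom (limma 3.58.1), other scalings and filters, a replicate block and each sample left out. Ratios of summed counts have exact 95% counting intervals. Coding lengths, with the stop codon, were read from Ensembl's WBcel235 annotation, which had 1 for the coding sequence of each of the 10 genes. The transcript named for him-3 was taken from another with the same coding sequence. Figures were drawn with matplotlib 3.10.9.

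The rule for named genes took all 10 genes and, from each other meiotic list, up to 4 called members, smallest p first, plus the 2 most abundant. For tissue markers it took sums only. One sperm marker, trp-3, matched no row. The genes and lists were chosen with earlier results of these data known. Sequences of promoters and proteins were not analysed here.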

Additional observations from a re-analysis of the deposited data

How the results depend on the processing

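The number of synaptonemal complex and axis genes called higher was 4, and 2 with DESeq2 and 1 with germ line marker counts as library size. It ran from 0 to 4 when single samples were left out, and none was called lower under any of the 15 alternatives. The number of other meiotic genes called higher was 14, 22 with library totals and 7 with germ line marker counts as library size, and 9 to 15 with single samples left out. Over all tested genes 579 were higher, 357 with germ line marker counts as library size, and 383 to 544 with single samples left out, the lowest without CHX replicate 3. The cause of these differences was not tested. Samples with the same replicate number did not deviate together from their group means (correlations over genes -0.05, -0.03 and -0.01), so no pairing by number was seen. The check cannot exclude pairing, since counting error at this depth adds to the deviations. With a replicate block 494 genes were higher and 731 lower, 3 of the 10 genes were called (him-17 had an adjusted p of 0.0718), and 12 other meiotic genes were higher. Depth limits what can be seen of syp-3, htp-1, htp-2 and syp-2, with 43 to 85 counts over the 6 samples.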

Other observations

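Of the meiotic genes with counts in both groups but too few to be tested with the filter, him-5 had the largest ratio, and was named after its values were seen. HIM-5 promotes meiotic double-strand breaks on the X chromosome. It had 0, 2 and 0 counts in no_CHX replicates 1 to 3 and 5, 13 and 16 in CHX replicates 1 to 3, so every sample on CHX was above every sample without it. The scaled ratio of summed counts was 13.1 (95% counting interval 3.36 to 113). In edgeR's fit without a low-count filter its adjusted p was 0.00718. Where it passed the filter with a sample left out, it did so only through the samples on CHX, in which it is high, so those fits lend it no support.

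Among the other 11 untested meiotic genes, zhp-3, for a RING finger protein of crossover sites, had 7 and 32 counts (ratio 3.53, interval 1.53 to 9.47; adjusted p 0.155 without a filter). The intervals of the remaining 10 included 1. They were zim-2, hal-3, chk-2, rec-1, rfs-1, brc-2, cosa-1, zhp-2, zhp-4 and bir-1, with rfs-1 at 0 and 2 counts.

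The pairing center gene him-8 lay at the threshold. HIM-8 is the zinc finger protein that pairs the X chromosomes. It had 14 counts without CHX and 50 with it, with no overlap between groups, a log2 fold change of 1.45 (SE 0.55) and an adjusted p of 0.05002. It passed the filter on low counts only through the samples on CHX, and without that filter its adjusted p was 0.0981. Its adjusted p was 0.0294 with library totals, 0.0476 with upper-quartile factors and 0.0495 with median-ratio factors, and it missed the threshold under the other 12 alternatives.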
